A study of Mus musculus with 12 samples.

Results

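Oxidative phosphorylation genes encode the respiratory chain and ATP synthase of the mitochondrial inner membrane. They were taken as all genes whose symbol in the deposited intensity table starts with Nduf (complex I), Sdha to Sdhd (complex II), Uqcr (complex III), Cox4 to Cox8 (complex IV) or Atp5 (complex V). The rule found 88 of 26166 symbols, with 137 probes. Of these genes, 81 had a probe above background (detection score above 0.95) on at least 3 of 12 arrays, and the probe with the highest mean stood for the gene. They are 39 genes of complex I, 3 of complex II, 6 of complex III, 16 of complex IV and 17 of complex V, and 73 of them encode subunits. The other 8 are picked up by their names: the assembly factors Ndufaf1, Ndufaf3, Ndufaf4 and Ndufa12l, the supercomplex factor Cox7a2l, and Cox4nb, Atp5s and Atp5sl. The 7 genes without a kept probe are Ndufs1, Sdha, Uqcrq, Cox4i2, Cox7b2, Cox8b and Cox8c.

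RNA came from bone marrow cells that lacked lineage markers and carried Kit and CD45.2, a gate that enriches haematopoietic stem and progenitor cells. The cells were sorted from C57BL/6 chimeras 12 to 16 weeks after transplantation of fetal liver cells of embryonic day 13.5, and each RNA sample was hybridized to an Illumina Mouse WG6V2 BeadChip. The 4 groups of 3 arrays were donor cells without caspase-9 (Casp9 KO) with the wild type of experiment 1 on 1 beadchip, and donor cells without both Bak and Bax (Bak/Bax DKO) with the wild type of experiment 2 on another. The series calls the samples independent but does not say that they are separate animals, whether marrow was pooled or which knockout alleles were used, so p-values measure only the spread between samples. Kit, Cd34, Gata2 and Ptprc, markers of the sorted population, were above background on all 12 arrays, while Flt3 was not kept. The deleted genes followed the labels: Casp9 was lower in Casp9 KO by a log2 change of -3.25 and Bax in Bak/Bax DKO by -1.82, and the Bak1 probe was above background on all 9 arrays outside Bak/Bax DKO and on none within it.

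In cells, complex I passes electrons from NADH and complex II from succinate to ubiquinone. Complex III passes them on to cytochrome c and complex IV to oxygen, and complex V makes ATP from the proton gradient that complexes I, III and IV build up. Bak and Bax open the mitochondrial outer membrane during apoptosis, which releases cytochrome c, itself a carrier of this chain, and caspase-9 is the protease activated downstream of that release.

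Bak/Bax DKO replicate 2 stood apart from the other arrays, and it did so at the oxidative phosphorylation genes more often than elsewhere. Its correlation with each of the 11 others was 0.724 to 0.745 over the log2 values of all probes, and its mean bead intensity was 234.5 against 321 to 522 on the others. A probe was counted as dropped out where the other 2 Bak/Bax DKO arrays averaged above 8 and replicate 2 lay more than 3 log2 units lower. That was so for 969 of 7572 such probes (12.8%) and for 29 of the 94 probes of oxidative phosphorylation genes (30.9%), while on any other array at most 6 probes, and none of these genes, fell below by that rule. The 2 shares were not matched for signal level above 8, and the part of signal level in their difference was not tested. By the probe used, 21 of 71 genes dropped out: 10 of complex I, 3 each of complexes III and IV, 5 of complex V and none of complex II. These 21 read 4.21 to 7.59 on replicate 2 and 9.86 to 13.9 on average on the other 2 arrays. Another 50 genes averaged above 8 and did not drop out. Of these, 44 (88%) were higher on replicate 2 than on both other Bak/Bax DKO arrays, against 81.2% of 4954 such genes among all genes tested. Over the 50 genes, the median difference of replicate 2 from the mean of the other 2 arrays was 0.64, against 0.53 over the 4954.

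**Figure D1:**
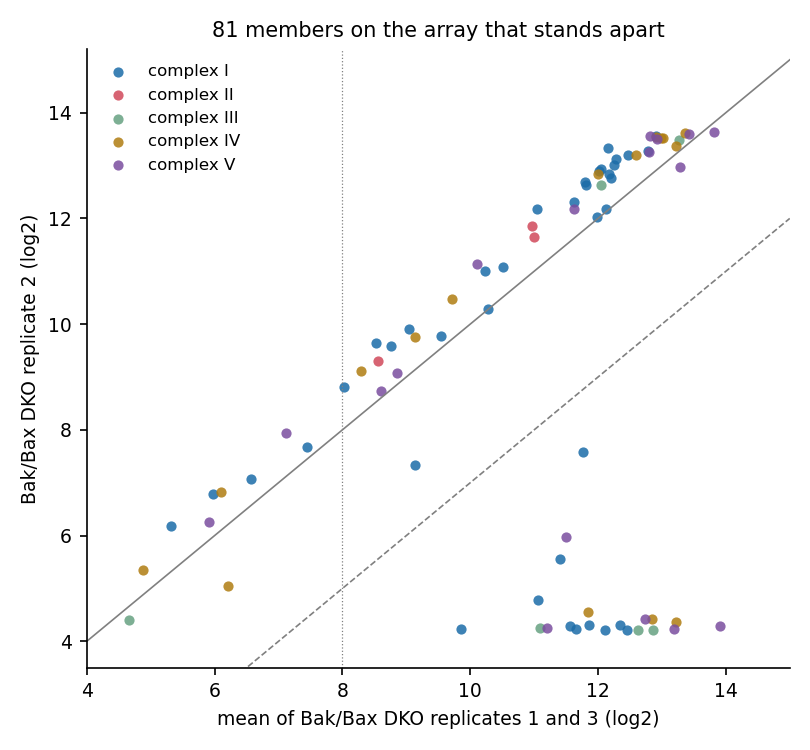
Each point is 1 of the 81 oxidative phosphorylation genes, with its mean log2 value on Bak/Bax DKO replicates 1 and 3 on the x axis and its value on replicate 2 on the y axis, coloured by complex. The solid line marks equal values, the dashed line 3 log2 units less and the dotted line a level of 8; the 21 genes below the dashed line read 4.21 to 7.59 on replicate 2, and 44 of the 50 other bright genes (88%, against 81.2% over all genes) were higher there than on both other arrays.

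Probes of 1 gene parted on that array. Of the genes with several bright probes, 12 had a probe that dropped out beside a probe that did not. For Cox6a1, the widely expressed form of a complex IV subunit, the probe at chr5:115798593-115798642 read 13.20 on replicate 2 and the overlapping probe at chr5:115798574-115798623 read 4.27 (positions as in the files; their genome build is not given in the sources used). Genes that dropped out had a median log2 change between Bak/Bax DKO and its wild type of -2.91 over 12 arrays and of -0.22 without replicate 2. The main results on Bak/Bax DKO are therefore given over 12 arrays and without that array, the second time from 2 Bak/Bax DKO arrays.

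In Casp9 KO, no oxidative phosphorylation gene passed the test. The limma fit over 11931 genes and 12 arrays called 0 of 81 (Benjamini-Hochberg adjusted p under 0.05), while 1.46% of all genes were called. An unadjusted p under 0.05 was found for 1 of the 81, and for 4 with Bak/Bax DKO replicate 2 left out of the fit. The share of all genes by that measure was not counted. The median log2 change was -0.02, as over all genes, and the subunit medians were -0.02 for complex I, -0.05 for complex II, -0.07 for complex III, 0.00 for complex IV and -0.00 for complex V. The values of Casp9 KO and wild type lay apart for 6 of the 81 genes (7.41%), against 24.9% of all genes. The highest value in complex I was 0.41, for the accessory subunit Ndufb5. In complex II, Sdhb, the iron-sulfur subunit, stood at 0.08 and Sdhd, a membrane anchor, at -0.05. Sdhc, the other anchor, stood at -0.17, although the Entrez identifier of its probe leads to Pcp4l1. Complex III ran from -0.25 for the core protein Uqcrc1 to 0.09 for Uqcrb, whose probe's identifier leads to no gene in the RefSeq table. In complex V the range was -0.21 for Atp5d, a subunit of the central stalk, to 0.15 for Atp5k, a small membrane subunit.

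The gene nearest to the threshold was Cox6b2, known as the testis form of a complex IV subunit. It read 10.20, 9.90 and 9.88 in wild type and 9.21, 9.31 and 8.97 in Casp9 KO, so the groups did not overlap. Its log2 change of -0.83 (SE 0.231, n = 3 and 3) had an adjusted p of 0.138 in limma over 12 arrays. With Bak/Bax DKO replicate 2 taken out of the shared estimate of the spread, limma gave the same change an adjusted p of 0.0100, the 1 call among 81 genes against 5.77% of all genes. Leaving out a further array ended that call for wild type replicate 1 and for Casp9 KO replicate 3, with an adjusted p of up to 0.0559. A second Cox6b2 probe, above background on 4 arrays, had a change of 0.02. Cox6b1, the common form, stood at -0.01.

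In Bak/Bax DKO, most oxidative phosphorylation genes read slightly lower than in wild type, and few passed the test. Without replicate 2, 73 of 81 genes (90.1%) had a log2 change below 0, against 48.8% of all genes, and the median was -0.22 against 0.01. The subunit medians were -0.26 for complex I, -0.15 for complex II, -0.13 for complex III, -0.26 for complex IV and -0.20 for complex V. The values of the 2 knockout arrays lay below all 3 wild-type values for 31 genes (38.3%), against 14.2% of all genes. With all 12 arrays, 58 of 81 changes (71.6%) were below 0, against 37% of all genes. The median was -0.13 against 0.11 over all genes, and 14 genes (17.3%) lay below wild type without overlap, against 5.31%. The subunit medians over 12 arrays were -0.16 for complex I, 0.15 for complex II, -1.30 for complex III, -0.17 for complex IV and -0.33 for complex V, so that complex II changed sign with replicate 2. The value of complex III rested on the same array, where Uqcr, Uqcrb and Uqcrc2 dropped out.

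**Figure D2:**
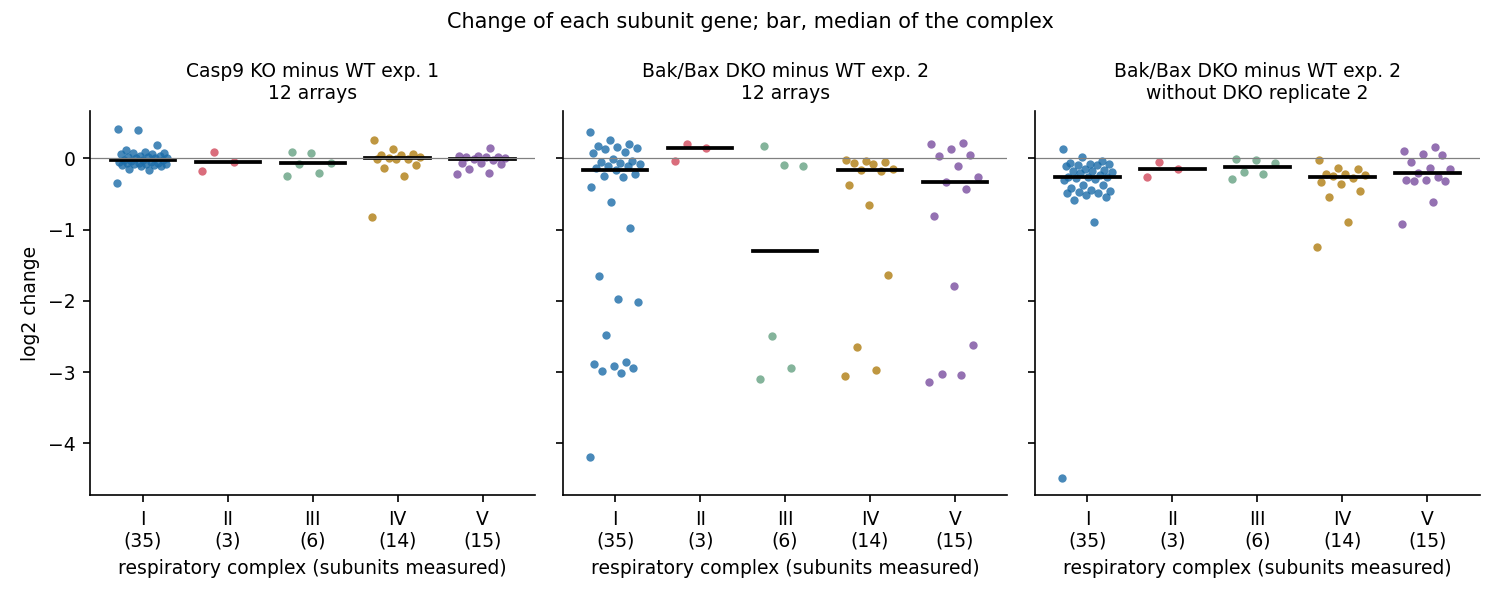
Each point is the log2 change of 1 subunit gene, with complexes I to V on the x axis and the number of subunits measured in brackets; bars mark the median of each complex. In Casp9 KO the medians lie between -0.07 and 0.00, and in Bak/Bax DKO the points below -1.6 over 12 arrays are, apart from Ndufb10 and Cox6a2, genes that dropped out on replicate 2, which lie between -0.55 and 0.17 without it.

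The wild-type arrays of experiment 2 were uneven in the same genes. Against the mean of their group, the oxidative phosphorylation genes had a median of -0.15 on wild type replicate 1 and of 0.07 on each of the other two, and replicate 1 was the lowest wild type for 65 of 81 genes (80.2%), against 36.3% of all genes. On Bak/Bax DKO replicates 1 and 3 the medians were -0.27 and -0.17, so the lowest wild-type array lay near them. Casp9 KO arrays stood at 0.04, -0.03 and -0.11 against their own wild type. In the 11 fits that left out replicate 2 and 1 more array, the median change of the 81 genes ran from -0.31 without wild type replicate 1 to -0.16 without wild type replicate 2.

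**Figure D3:**
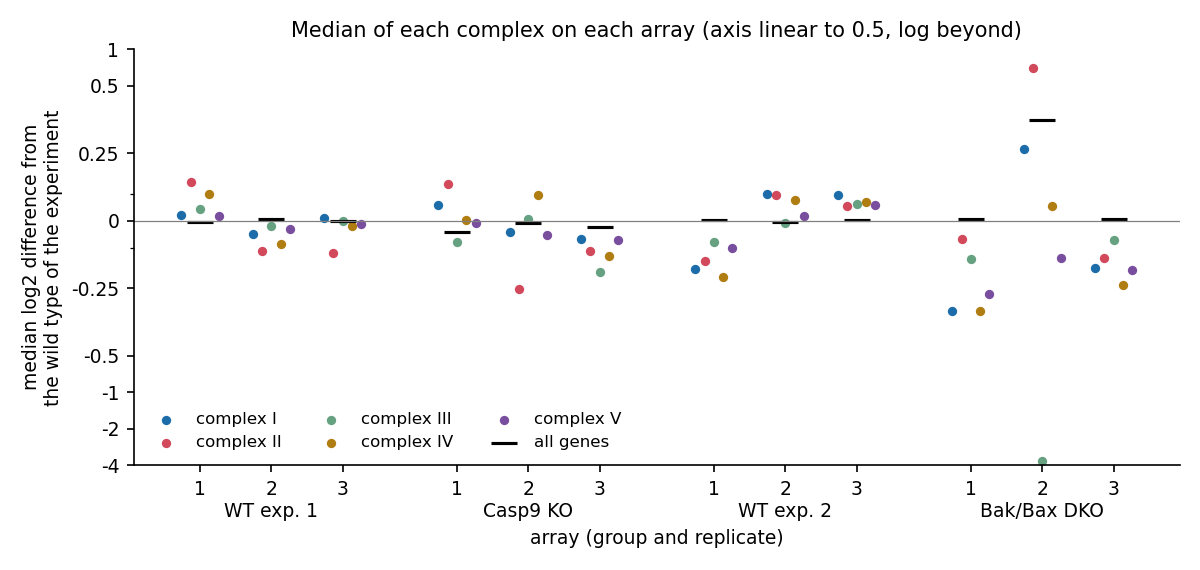
For each of the 12 arrays (x axis, by group and replicate), points give the median log2 difference of each complex's subunits from the mean of the wild-type arrays of the same experiment, and the black bar the median of all genes. Wild type replicate 1 of experiment 2 lies below its 2 fellows for complexes I to V, and Bak/Bax DKO replicate 2 is the array on which complex III stands at -3.66 and all genes at 0.37.

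Ndufb10, an accessory subunit of the membrane arm of complex I, gave the lowest value of the 81 genes, and its probes contradict each other. The probe of the fit lies at chr17:24859079-24859128 in the files' positions. It read 9.50, 10.09 and 9.83 in wild type and 5.31, 6.19 and 5.32 in Bak/Bax DKO, a change of -4.20 (SE 0.249, adjusted p = 1.01e-05 in limma) over 12 arrays and -4.49 (adjusted p = 1.09e-08), or 22.4-fold, without replicate 2. The groups lay far apart, and bead intensity fell from 790 to 1149 in wild type to 115 to 119 in the knockout. The second probe lies at chr17:24859070-24859119 and shares 41 of its 50 bases with the first. It read 8.07, 8.38 and 8.61 in wild type and 9.10, 9.65 and 9.44 in Bak/Bax DKO, so that here all knockout values were the higher ones. Its change was 1.05 (SE 0.190, adjusted p = 0.0197 in limma over 18867 probes) over 12 arrays and 0.92 (adjusted p = 0.0184) without replicate 2.

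Both probes of Ndufb10 passed the test in opposite directions, so these arrays do not settle whether its transcript was lower or higher in Bak/Bax DKO. In experiment 1 neither probe passed: the probe of the fit read 10.46, 10.23 and 10.38 in wild type and 10.60, 10.12 and 10.17 in Casp9 KO (-0.06), and the second probe stood at 0.15. The probe of the fit lies 2.30 Mb from the Bak1 probe. Of the 170 genes tested within 5 Mb of Bak1, limma called 26 (15.3%) without replicate 2 and 11 (6.47%) over 12 arrays, against 4% and 2.05% of all genes. Ndufv3, a complex I subunit gene in the same window, stood at -0.48 without replicate 2 (adjusted p = 0.125) and at -0.10 over 12 arrays (adjusted p = 0.864). The part of this position in the Ndufb10 values was not tested.

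**Figure D4:**
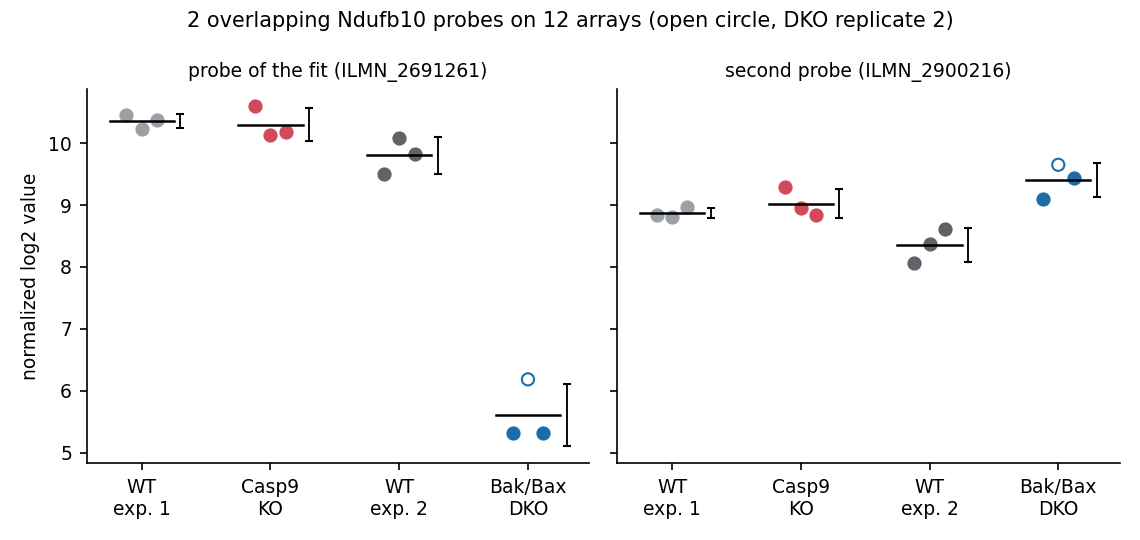
Normalized log2 values of the 2 overlapping Ndufb10 probes (y axis) in the 4 groups (x axis); points are arrays, lines group means and bars SD (n = 3), and the open circle is Bak/Bax DKO replicate 2. In Bak/Bax DKO the probe of the fit sits between 5.31 and 6.19, below every other array, while the second probe sits between 9.10 and 9.65, above its wild type at 8.07 to 8.61.

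Besides Ndufb10, limma called Cox6a2 lower over 12 arrays. By the probe used for each gene, that makes 2 of 81 genes lower (2.47%) and none higher. Of all genes, 0.469% were called lower and 2.05% in either direction. Ndufb10 is counted as lower here and below, although its second probe was called higher in both fits. By an unadjusted p under 0.05 in limma, 6 of the 81 were lower over 12 arrays and 24 without replicate 2, and none higher. The share of all genes by that measure was not counted. Without replicate 2 the adjusted calls were 6 (7.41%), all lower, against 1.78% of all genes called lower and 4% called in either direction. They were Ndufb10, Cox6a2, Cox7b, Ndufb4, Atp5k and Ndufc1. Of these, Cox6a2, Cox7b, Ndufb4 and Atp5k had wild-type means of 6.84 to 7.46, where bead intensities of experiment 2 lay between 100 and 279.

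Cox6a2 is known as the heart and skeletal muscle form of a complex IV subunit. It read 6.95, 7.75 and 7.68 in wild type and 6.25, 5.05 and 6.18 in Bak/Bax DKO, without overlap. The change was -1.63 (SE 0.316, adjusted p = 0.0253 in limma) over 12 arrays and -1.25 (SE 0.219, adjusted p = 0.00618) without replicate 2, the array with the lowest value. The first call ended without wild type replicate 2 (adjusted p = 0.112) or 3 (0.119), and the second without Bak/Bax DKO replicate 3 (0.0647). Cox6a1, the common form, stood at -0.03 and -0.24 in the 2 fits and did not pass.

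Cox7b, a small complex IV subunit, read 6.70, 7.09 and 7.20 in wild type and 6.17, 6.83 and 6.02 in Bak/Bax DKO. Replicate 2 overlapped with wild type, and the other 2 knockout arrays lay below it. The change was -0.65 (adjusted p = 0.167 in limma) over 12 arrays and -0.90 (SE 0.164, adjusted p = 0.00819) without replicate 2. Ndufb4, an accessory subunit of complex I, read 6.64, 6.81 and 7.15 in wild type and 6.19, 6.79 and 5.77 in the knockout, again with overlap on replicate 2 only. Its change was -0.62 (adjusted p = 0.235 in limma) and -0.89 (SE 0.186, adjusted p = 0.018). Both calls ended when Bak/Bax DKO replicate 3 was also left out, and that of Ndufb4 also without wild type replicate 3, with adjusted p of up to 0.0921 and 0.186.

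Atp5k read 6.43, 6.80 and 7.28 in wild type and 5.93, 6.25 and 5.90 in Bak/Bax DKO, where all knockout values were the lower ones. Its change was -0.81 (adjusted p = 0.100 in limma) and -0.92 (SE 0.220, adjusted p = 0.0345). Leaving out any of Bak/Bax DKO replicates 1 and 3 and wild type replicates 2 and 3 in addition ended the call. Ndufc1, a small accessory subunit of complex I, read 12.04, 12.17 and 12.38 in wild type and 11.57, 4.24 and 11.73 in the knockout, so replicate 2 was a dropout. Its change was -3.02 with an SE of 1.52 over 12 arrays (adjusted p = 0.358 in limma) and -0.55 with an SE of 0.134 without replicate 2 (adjusted p = 0.0399). A second Ndufc1 probe gave -0.56 without replicate 2 (adjusted p = 0.0880 in limma over probes), and the call was kept in 2 of 11 fits with a further array left out.

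**Figure D5:**
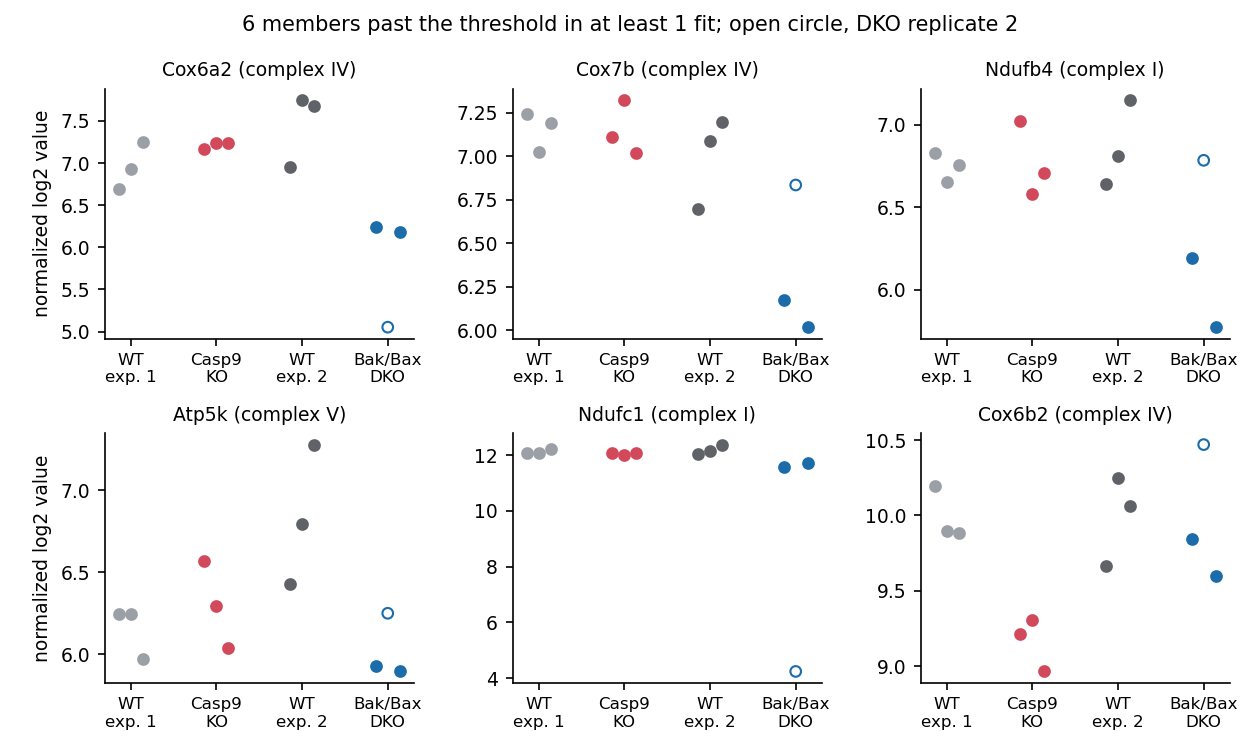
Normalized log2 values (y axis, scaled per gene) of Cox6a2, Cox7b, Ndufb4, Atp5k, Ndufc1 and Cox6b2 in the 4 groups (x axis); each point is an array and the open circle is Bak/Bax DKO replicate 2. The filled Bak/Bax DKO points of Cox6a2, Cox7b, Ndufb4, Atp5k and Ndufc1 lie below the 3 wild-type points of experiment 2, and Cox6b2 is lower in Casp9 KO, at 8.97 to 9.31.

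Promoters are shown for called genes because nuclear respiratory factor 1 (NRF1) is a known activator of genes of this chain. RefSeq promoters (GRCm38.p6) matched 70 of the 81 genes. The 250 bases before the start of Ndufb10 (chr17:24724424-24724673, minus strand), Ndufb4 (chr16:37654369-37654618, minus strand) and Atp5k (chr5:108434400-108434649, minus strand) are given 5' to 3', with capitals for matches to GCGCATG (letters of the NRF1 motif) or GGGCGG (SP1) on either strand.
Ndufb10: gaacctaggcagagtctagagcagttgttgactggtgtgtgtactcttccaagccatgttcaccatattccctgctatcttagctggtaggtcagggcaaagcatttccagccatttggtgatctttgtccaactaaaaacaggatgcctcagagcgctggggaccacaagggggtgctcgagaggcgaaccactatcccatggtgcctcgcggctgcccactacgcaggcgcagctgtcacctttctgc
Ndufb4: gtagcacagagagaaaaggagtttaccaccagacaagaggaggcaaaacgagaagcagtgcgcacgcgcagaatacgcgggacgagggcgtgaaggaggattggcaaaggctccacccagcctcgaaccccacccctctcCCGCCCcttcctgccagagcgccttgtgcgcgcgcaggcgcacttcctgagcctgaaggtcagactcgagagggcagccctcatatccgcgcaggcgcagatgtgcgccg
Atp5k: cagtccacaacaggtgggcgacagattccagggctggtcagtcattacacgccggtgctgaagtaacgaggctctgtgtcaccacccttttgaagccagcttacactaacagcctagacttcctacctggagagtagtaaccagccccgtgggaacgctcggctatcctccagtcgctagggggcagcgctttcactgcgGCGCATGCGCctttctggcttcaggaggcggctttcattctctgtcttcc

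Atp5k held GCGCATG on both strands in overlapping matches that began 50 and 47 bases before the start. Ndufb4 held GGGCGG once, 110 bases before the start. The Ndufb4 window lacked the exact letters GCGCATG but holds gcgcacg, with C in place of T, which was not counted as a match. The Ndufb10 window held neither GCGCATG nor GGGCGG, nor did those of Cox7b and Ndufc1. Cox6a2 had no matched promoter and was not searched. Of 76 promoters of the oxidative phosphorylation genes, 11 (14.5%) held GCGCATG, against 3.24% of 32851 promoters of all genes. The ETS motif CCGGAAG stood in 17.1% against 6.91%, GGGCGG in 38.2% against 32.7%, and AAGATGG, letters of the YY1 motif, in 2.63% against 4.49%. These matches describe letters only. Only the exact letters given were searched, so other forms of a motif were not counted, and a window without a match may still hold them.

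Among the catalytic parts, changes in Bak/Bax DKO were small without replicate 2. The 6 measured core genes of complex I had a median of -0.09 (-0.03 over 12 arrays) and ran from -0.21 for Ndufs8, which holds iron-sulfur clusters, to 0.13 for Ndufv1, the NADH-binding subunit. Over 12 arrays these 2 genes stood at 0.09 and 0.37. Ndufs3 dropped out on replicate 2, at 5.55, and stood at -2.01 with that array and -0.06 without it. The 5 genes of the soluble F1 part of complex V had a median of 0.05 (0.04 over 12 arrays). Among them Atp5b, the catalytic beta subunit, stood at 0.10 (0.04 over 12 arrays). Atp5e, the epsilon subunit, stood at -0.61 (adjusted p = 0.153 in limma), and at -0.33 over 12 arrays (adjusted p = 0.504). Atp5g1, Atp5g2 and Atp5g3, which encode the same mature c-ring protein, stood at -0.20, -0.31 and 0.17, and the values of Atp5g3 lay above wild type on both arrays. Over 12 arrays they stood at 0.05, -2.62 and -3.04, the last 2 with their probes dropped out on replicate 2.

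The remaining isoforms and anchors did not pass in either fit. Cox4i1, the common form of the complex IV subunit 4, read 13.19, 13.31 and 13.25 in wild type and 13.15, 4.37 and 13.30 in Bak/Bax DKO, which gave -2.98 (SE 1.81, adjusted p = 0.414 in limma) with replicate 2 and -0.03 without it. Cox7a1, the muscle form, and Cox7a2, the common form, stood at -0.54 and -0.45 without replicate 2 and at -0.38 and -0.18 over 12 arrays. Cox8a stood at -0.22 and Ndufa4, now counted in complex IV, at -0.13, against -0.05 and -0.08 over 12 arrays. Sdhb, Sdhc and Sdhd stood at -0.15, -0.26 and -0.05 without replicate 2 and at 0.15, -0.04 and 0.20 over 12 arrays, and all 3 read higher on replicate 2 than on both other knockout arrays. Uqcrfs1, the Rieske iron-sulfur protein of complex III, was above background on 4 arrays, and its change of -0.01 has little signal behind it.

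The difference between the effects of the 2 knockouts was tested in the same fit. Over 12 arrays 1 of 81 genes differed, Ndufb10 by the probe of the fit (-4.14, adjusted p = 0.000292 in limma), against 1.94% of all genes. Its second probe gave 0.90 (adjusted p = 0.136 over probes). Without replicate 2, 6 genes differed against 6.98% of all genes: Ndufb10, Cox6a2 (-1.51), Ndufb11 (-0.91), Cox7b (-0.89), Ndufb4 (-0.91) and Atp5k (-1.07). Ndufb11, an accessory subunit of complex I, stood at 0.40 in Casp9 KO and -0.51 in Bak/Bax DKO, neither of which passed alone, and its other 2 probes stood at -0.01 and 0.29 in Bak/Bax DKO.

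Between the wild types of the 2 experiments, where experiment and beadchip cannot be told apart, 2 genes passed over 12 arrays against 7.65% of all genes. The complex I assembly factors Ndufaf4 and Ndufaf3 differed by 1.29 and -0.68 (experiment 2 minus experiment 1). Without Bak/Bax DKO replicate 2 there were 8, against 20.2% of all genes, among them Ndufb10 at -0.55.

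Other mitochondrial and metabolic lists were described by counts and medians in Bak/Bax DKO, first without replicate 2. Of 42 genes of the large subunit of the mitochondrial ribosome, 38 were below 0 with a median of -0.22 and none passed. The median was -0.08 for 23 assembly factors (0 called), -0.08 for 18 genes of the tricarboxylic acid cycle (0 called), 0.01 for 16 regulators of mitochondrial biogenesis (0 called), -0.03 for 8 carriers (0 called) and 0.04 for 23 glycolysis genes. With all 12 arrays, 20 of the 42 ribosomal genes were below 0 and their median was 0.01. The medians were then 0.09 for the assembly factors, 0.11 for the tricarboxylic acid cycle, 0.25 for the regulators, 0.08 for the carriers and 0.10 for glycolysis, beside 0.11 over all genes, so the medians of the ribosome, assembly factors, cycle and carriers changed sign with replicate 2. In the glycolysis list, Aldoc, an aldolase, rose by 0.91 (adjusted p = 0.0185 in limma) and by 0.96 over 12 arrays. Among 16 electron carrier and coenzyme Q genes, with a median of -0.09 (0.04 over 12 arrays), Etfb, a subunit of the electron transfer flavoprotein, fell by 0.65 without replicate 2 (adjusted p = 0.0179 in limma), while none of the 16 passed over 12 arrays. The phosphofructokinase gene Pfkm had a change of -0.58 in Casp9 KO, which passed without Bak/Bax DKO replicate 2 in the estimate of the spread (adjusted p = 0.0150 in limma) and not over 12 arrays (adjusted p = 0.155). The 1 mitochondrially encoded gene measured, mt-Nd4, dropped by 9.25 on replicate 2 and stood at 0.02 without it.

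Several marker lists of cell types held called genes in Bak/Bax DKO, where 4% of all genes were called without replicate 2 and 2.05% over 12 arrays. Of 7 neutrophil markers 6 fell without replicate 2 (median -1.53) and none passed over 12 arrays (median -1.41), and their summed linear values were 18376 to 28079 against 42442 to 43277 in wild type. Of 10 stem and progenitor markers 4 rose in each fit (median 0.59 without replicate 2 and 0.57 with it). The 6 erythroid markers had a median of -0.94 without replicate 2 and -0.66 over 12 arrays with none called, and their sums without that array were 6447 to 15599 against 15099 to 27108. Of 4 T and NK markers 2 fell without replicate 2, with sums of 1372 to 1841 against 4428 to 5464, and 1 fell over 12 arrays. In each fit 2 of 8 macrophage and dendritic and 2 of 9 mast cell and basophil markers rose. Of 7 B lymphoid markers 1 rose and 2 fell in each fit. Of 6 stroma and endothelium markers 1 rose in each fit, and 1 fell without replicate 2. In Casp9 KO over 12 arrays, 3 mast cell and basophil, 1 macrophage and 1 stem cell marker rose and 1 stroma marker fell, against 1.46% of all genes called. With Bak/Bax DKO replicate 2 left out of the fit, 2 of the 6 erythroid markers fell in Casp9 KO (median -0.38), as did 2 stroma markers. In that fit 4 mast cell and basophil markers rose and 1 fell, 3 macrophage markers rose, and 1 stem cell marker rose and 1 fell. Of all genes, 5.77% were called there. In these bulk samples fewer cells of a type and less RNA per cell cannot be told apart, and the part of cell composition in the oxidative phosphorylation values was not tested.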

How the data were processed

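The authors deposited a linear bead intensity for each of 45281 probes on each array, with no normalization that the values show. The column headed as p-value that the authors deposited beside each intensity rises with it, so it was taken as 1 minus p (the detection score). The deposited log2 values lay within 0.0197 of neqc (normexp with an offset of 16, quantile normalization over 12 arrays), though no header names these steps. GenomeStudio and limma were used per the submitters' processing notes, with no version given.

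The deposited log2 values of 11931 genes (1 probe per symbol, the highest mean among 18867 kept probes) were fitted here with limma 3.58.1 in R 4.3.3: 4 group means, moderated two-sided tests and Benjamini-Hochberg adjustment over all genes at 0.05. The fit was run on 12 arrays and without Bak/Bax DKO replicate 2, and on simulated data. Probe results come from a fit over all kept probes. The number of arrays limits the precision. Complex medians use subunits only, with Ndufa4 in complex IV. The genes and lists were chosen with earlier results of these data known. Named are the called genes, Ndufb10, the 2 smallest p-values and the extremes of each complex, isoform sets, complex II and core genes. Alternatives covered background correction, centring, detection filter, probe averaging, array weights, a replicate block and arrays left out. The 58 symbols that differ between the tables, mostly turned into dates, concern no oxidative phosphorylation gene.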

Additional observations from a re-analysis of the deposited data

Results flagged for a closer look

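The effects of the 2 knockouts on Ndufb10 differed by -4.14 on the log2 scale (Bak/Bax DKO minus Casp9 KO, limma adjusted p = 0.000292 over all genes), by a test of the difference itself. The value belongs to 1 of 2 overlapping probes. It was lower in 3 of 3 Bak/Bax DKO arrays, whereas the other probe was higher in 3 of 3.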

How the results depend on the processing

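The change of Ndufb10 by the probe of the fit kept its direction and its call in the settings run on that probe, from -4.64 to -2.82, the last with no background correction. The mean of both of its probes, which moved in opposite directions, gave -1.57 and was called lower. With all 12 arrays, leaving out 1 array at a time moved the called oxidative phosphorylation genes in Bak/Bax DKO between 1 and 6, in Casp9 KO between 0 and 1 and in the difference of effects between 1 and 6. All genes called moved between 87 and 477 and between 86 and 688, in each case with the highest count without Bak/Bax DKO replicate 2. Without that array and 1 more, the counts ran from 1 to 13 in Bak/Bax DKO, from 0 to 1 in Casp9 KO and from 3 to 7 in the difference, and all genes called from 171 to 543 and from 323 to 814. Over both kinds of fit, the Bak/Bax DKO medians ran from -0.37 to -0.05 for complex I, -0.28 to 0.28 for complex II, -1.94 to -0.07 for complex III, -0.38 to -0.042 for complex IV and -0.47 to -0.16 for complex V. In Casp9 KO they ran from -0.15 to 0.13 for complex II and stayed between -0.13 and 0.07 for the others.

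Normalizing again with neqc over 11 arrays gave 6 calls in Bak/Bax DKO, 1 in Casp9 KO and 6 in the difference, 466 and 677 genes called in all, and -0.19 for complex V in Bak/Bax DKO. Choosing probes again over 11 arrays, a setting chosen after seeing the data like that of 1 more array left out, gave 6, 1 and 6 calls, 470 and 689 genes and -0.20 for complex V. Array weights gave 8 calls in Bak/Bax DKO, 1 in Casp9 KO and 6 in the difference, 575 and 945 genes in all, and -0.41 and -0.37 for complexes I and IV in Bak/Bax DKO. With only the 6 arrays of an experiment the fit called 1 gene in each knockout, and 16 (Bak/Bax DKO) and 565 (Casp9 KO) in all. Averaging the probes of a gene gave -0.52 for complex IV and -0.70 for complex V in Bak/Bax DKO. With probes above background on all 12 arrays, which takes out most dropouts, complex V stood at -0.11 in Bak/Bax DKO, complex III at -0.16 in Casp9 KO, and 2 genes differed between the effects. With no detection filter 1 gene was called in Bak/Bax DKO. Samples of the same replicate number did not deviate together in every pair (correlations from -0.066 to 0.25); in experiment 2 each array correlated best with its own number, in experiment 1 not. The replicate block gave 1 call in Bak/Bax DKO and 120 and 108 genes called in all. The cause of the other moves was not tested. For probes near background on these arrays, such as those of Cox7b, Ndufb4 and Atp5k, signal limits what can be seen.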
